A study of Mus musculus with 8 samples.

Results

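The Slit ligands Slit1, Slit2 and Slit3 and the Roundabout receptors Robo1 and Robo2 were followed through 8 spatial transcriptomics sections of embryonic mouse diaphragm. These 5 genes were chosen by symbol from the 19465 genes in each matrix, and all 5 passed the filter on low counts in every comparison. Slit proteins are large secreted ligands that bind Robo receptors on the cell surface with the help of heparan sulfate, and the pathway is best known for repelling axons from the midline of the nervous system. It also acts on motor axons and in kidney, heart and vessel development, and mice without Slit3 develop hernias of the central tendon of the diaphragm. Robo1 and Robo2 are the widely used receptors, whereas Robo3 serves commissural axons and Robo4 endothelial cells.

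Each section came from 1 embryo and was read with probes on a grid of spots 100 µm apart, so that a spot holds several cells. The controls comprised 3 sections at E14.5 and 2 at E18.5, in days of embryonic development. Their embryos kept at least 1 working copy of CaV1.1 and of β-catenin, so their genotypes may be mixed. The mutants were 1 section each of CaV1.1 -/- embryos (CaV1.1 KO) at E14.5 and at E18.5, and 1 section of a bCat cKO embryo (β-cat cKO) at E18.5. In the paper's crosses, parents of the cKO, and of some or all CaV1.1 KO embryos, carried floxed β-catenin and 1 CaV1.1 copy. Whether a mutant section also carried alleles of the other line is not given by the labels. CaV1.1 is the calcium channel and voltage sensor of skeletal muscle, and its loss in the dysgenic line is constitutive and leaves the muscle paralysed. In the β-cat cKO the floxed gene is removed by Cre recombinase under the human skeletal actin promoter, so cells other than muscle keep it. Slit2 has been proposed elsewhere as a muscle signal to motor axons that depends on β-catenin. The paper on these sections reported that it found neither that central distribution of Slit2 nor its regulation by β-catenin. Here the place of Slit2 along the muscle fibers and its level in both mutants were read from the same sections.

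The pathway carries a small RNA within its own genes, shown here because it ties the ligand loci to the receptor transcripts. Slit2 lies at chr5:47983138-48307733 on the plus strand (GRCm38), and Slit3 at chr11:35121224-35708507 on the plus strand. The hairpins of miR-218 lie on the same strand in intron 14 of 35 of each gene, at chr5:48223942-48224051 in Slit2 and at chr11:35616816-35616925 in Slit3. Both give the same mature RNA in RefSeq (GRCm38.p6), with the seed, bases 2 to 8, in capitals. The reverse complement of the seed, AAGCACA, stood after the stop codon of Slit2 in 2 places, of Robo1 in 1 and of Robo2 in 2, and in neither Slit1 nor Slit3. The searched stretch was shorter in Slit1 and Slit3, at 1212 and 365 bases, than in Slit2, Robo1 and Robo2, at 3492, 1733 and 3987 bases. Beside the 5 members, Robo3 held 1 match in 343 bases and Robo4 0 in 1728. Among all 20957 genes with a coding transcript 13.6% held at least 1 such match, and 25.3% of the 4829 genes with as many bases after the stop codon as Slit2, Robo1 and Robo2. These are letter matches in 3′ untranslated regions of GRCm38 and say nothing about use of the sites, and the RNA itself was not measured, since the probes read messenger RNA. The first Slit2 match lies at chr5:48304529-48304557 and the second at chr5:48306832-48306860 (plus strand), the Robo1 match at chr16:73045334-73045362 (plus strand), and the Robo2 matches at chr16:73895351-73895379 and chr16:73893025-73893053 (minus strand).
mmu-miR-218-5p: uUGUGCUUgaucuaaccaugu
Slit2 site 1: gccaatactagcagAAGCACAtctacaag
Slit2 site 2: gataattattagcaAAGCACAtaaattaa
Robo1 site 1: ttttttggttttaaAAGCACAatcactaa
Robo2 site 1: ttttatttggtgatAAGCACAaatctcta
Robo2 site 2: gtcacggcagacccAAGCACAgcttcttt

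A promoter is listed for 4 of the 5 members, all but Slit1, and those of Slit2 and Robo1 are printed because the levels of these 2 genes ran together across the sections. Each window runs from 250 bases before to 50 bases after the transcription start listed by RefSeq (GRCm38.p6), at chr5:47982905-47983204 for Slit2 and chr16:72662899-72663198 for Robo1, both on the plus strand. The Robo1 start lies inside the gene as annotated at chr16:72308306-73046095. Both strands were searched for the E-box CANNTG, the class of site that myogenic factors read, and for the TCF/LEF core CTTTGAT, the class that β-catenin complexes read, with no overlap between the motifs and matches in capitals. The Slit2 window held neither, and the Robo1 window held 3 E-boxes and no TCF/LEF core. Of all 32851 promoters listed, 72.3% held an E-box and 3.73% the TCF/LEF core. The Slit3 window and the 3 windows of Robo2 held 0 and 1 E-box each, and no TCF/LEF core.
Slit2 promoter: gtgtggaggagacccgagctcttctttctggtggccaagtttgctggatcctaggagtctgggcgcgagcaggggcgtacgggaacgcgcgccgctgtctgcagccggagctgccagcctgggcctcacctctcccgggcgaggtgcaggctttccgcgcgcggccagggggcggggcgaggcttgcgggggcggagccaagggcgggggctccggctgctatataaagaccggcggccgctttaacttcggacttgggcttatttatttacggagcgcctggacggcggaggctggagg
Robo1 promoter: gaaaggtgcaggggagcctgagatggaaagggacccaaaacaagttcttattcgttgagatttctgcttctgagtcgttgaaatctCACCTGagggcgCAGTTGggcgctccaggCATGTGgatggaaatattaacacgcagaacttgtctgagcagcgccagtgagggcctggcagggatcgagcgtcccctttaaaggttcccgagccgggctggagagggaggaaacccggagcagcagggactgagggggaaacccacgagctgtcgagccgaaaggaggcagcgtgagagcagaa

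The sections held 14179161 to 82859104 UMIs (counted molecules) over 683 to 3460 spots that had at least 1000 UMIs. Between 55.0% and 89.4% of these spots were classed as muscle by 9 muscle genes. The rest, called outside, held tendon, mesothelium, connective tissue and, in some sections, liver or cartilage, beside some muscle. UMIs of each gene were summed over the muscle spots and over the outside spots of a section, and levels are given as counts-per-million (CPM) of UMIs, scaled by TMM. Probes differ in efficiency, so levels were compared between sections and regions, not between genes. In a section, fewer cells of a type and less RNA per cell cannot be told apart. Without TMM, the 9 muscle genes summed to 5636 to 8681 CPM in outside spots of the E14.5 controls. In those of the E18.5 controls they summed to 31869 to 47828 CPM. The muscle spots held 21642 to 27362 CPM and 128417 to 131917 CPM. Muscle against outside thus sets more muscle against less, and outside levels include some muscle RNA. In muscle spots Cacna1s, which encodes CaV1.1, stood at 84.4 and 87.3 CPM in the E18.5 controls and 29.7 CPM in the E18.5 CaV1.1 KO, and at 14.96 to 18.4 CPM in the E14.5 controls and 13.4 CPM in the E14.5 KO. Ctnnb1, which encodes β-catenin, stood at 104.6 and 97.4 CPM in the E18.5 controls and 96.2 CPM in the β-cat cKO. Whether the probes of either gene lie inside the mutated or deleted exons is not given in the sources used here, so neither level checks the label, and the E14.5 KO lay close to its controls for Cacna1s. Sections shared 150 to 2151 spot barcodes per pair, because every slide area carries the same set.

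Slit1 was the one ligand with a higher level in muscle than outside it in all 8 sections, whereas Slit3, Robo1 and Robo2 were lower in muscle in all 8. With the muscle and outside sums scaled together, Slit1 stood in the E14.5 controls at 11.6, 7.59 and 7.14 CPM in muscle spots and at 3.94, 2.68 and 3.58 CPM outside, from 6 to 47 UMIs outside. In the E18.5 controls it stood at 15.3 and 16.02 CPM in muscle and at 3.85 and 5.78 CPM outside. The muscle and outside values did not overlap at either stage. Here and below, the share of all genes without overlap is not given, so a lack of overlap only describes these sections. In a fit of the muscle and outside sums with section as a block, Slit1 was higher in muscle by 1.44 on the log2 scale (SE 0.21, adjusted p = 0.00192) at E14.5 and by 1.71 (SE 0.23, adjusted p = 6.41e-04) at E18.5. Every adjusted p in the text is from edgeR's quasi-likelihood F test with Benjamini-Hochberg adjustment over all genes tested in that comparison, with 0.05 as the threshold. At E14.5 37.4% of all genes tested passed it and at E18.5 53.2%, so passing is common and the direction and size carry the information.

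Slit3 showed the opposite pattern. It stood at 10.6, 12.0 and 13.5 CPM in the muscle of the E14.5 controls and at 39.3, 49.98 and 45.3 CPM outside. At E18.5 it stood at 17.5 and 31.7 CPM in muscle and 114 and 173 CPM outside, and the compartments did not overlap at either stage. Slit3 was lower in muscle, with a log2 difference of -1.92 (SE 0.10, adjusted p = 7.23e-05) at E14.5 and -2.58 (SE 0.11, adjusted p = 3.65e-05) at E18.5. Robo2 was lower in muscle with log2 differences of -2.20 (SE 0.12) and -1.86 (SE 0.15), and Robo1 with -0.85 (SE 0.11) and -0.59 (SE 0.14), all past the threshold. Without the E18.5 control section 2 the Robo1 difference at E18.5 was -0.30 and was no longer past the threshold, and without section 1 it was -0.94.

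Slit2 was found on both sides. At E14.5 it stood at 84.5, 92.1 and 73.3 CPM in muscle and 82.4, 129 and 59.6 CPM outside, with overlap, and the difference did not pass the test (-0.10, SE 0.13, adjusted p = 0.606). At E18.5 it stood at 22.8 and 19.4 CPM in muscle against 44.4 and 34.8 CPM outside, without overlap, and was lower in muscle (-0.90, SE 0.17, adjusted p = 0.00336). Across all 8 sections it was higher in muscle in 3 and lower in 5. The change in this difference from E14.5 to E18.5 was -0.81 for Slit2 (SE 0.21, adjusted p = 0.0399) and -0.65 for Slit3 (SE 0.14, adjusted p = 0.0195), against 18.6% of all genes called for this change. The Slit2 change was past the threshold without the E14.5 control section 2, and not without any other 1 control section, where it ran from -0.67 to -0.85. The Slit3 change missed it without the E14.5 control section 1 (-0.64).

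**Figure D1:**
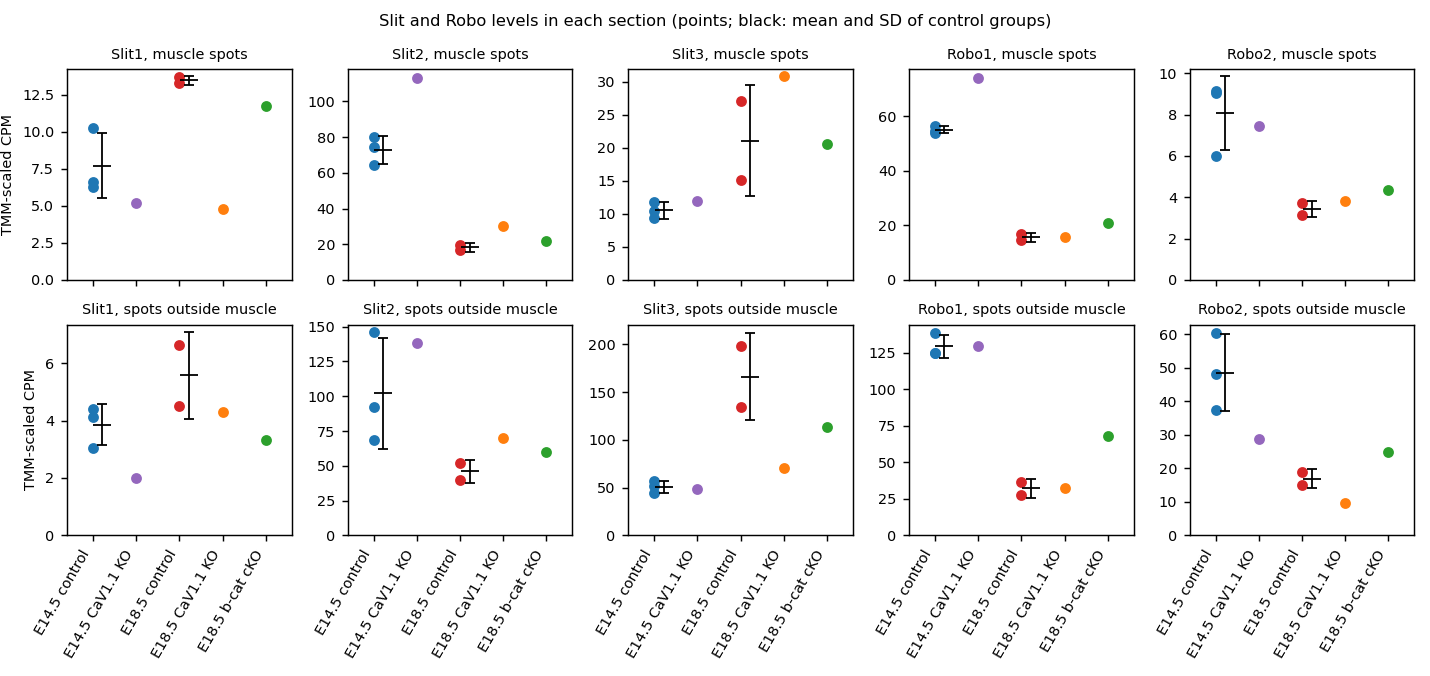
Levels of the 5 genes (TMM-scaled CPM, linear axes from 0) in muscle spots (top) and spots outside muscle (bottom), with 1 point per section, and black marks for the mean ± SD of the control groups; muscle and outside sums were scaled separately, so levels compare within a panel only. In muscle Slit2, Robo1 and Robo2 sit higher in the E14.5 than in the E18.5 controls, and Slit1 in the E18.5 CaV1.1 KO, at 4.75 CPM, sits below both E18.5 controls.

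The same order appeared when the kept spots of each section were ranked by their muscle score and split into 5 classes of equal size. Slit1 was higher in the most than in the least muscle-rich class in every section, by a ratio of 1.38 to 5.73. Slit3 was 4.34 to 21.8 times higher in the least than in the most muscle-rich class, Robo2 2.55 to 12.5 times and Robo1 1.68 to 5.32 times, each in all 8 sections. Slit2 was higher in the least muscle-rich class in 6 of 8 sections, and the ratio of the least to the most muscle-rich class ran from 0.907 to 5.83. The values are a description of these sections, since the classes of a section share its library.

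**Figure D2:**
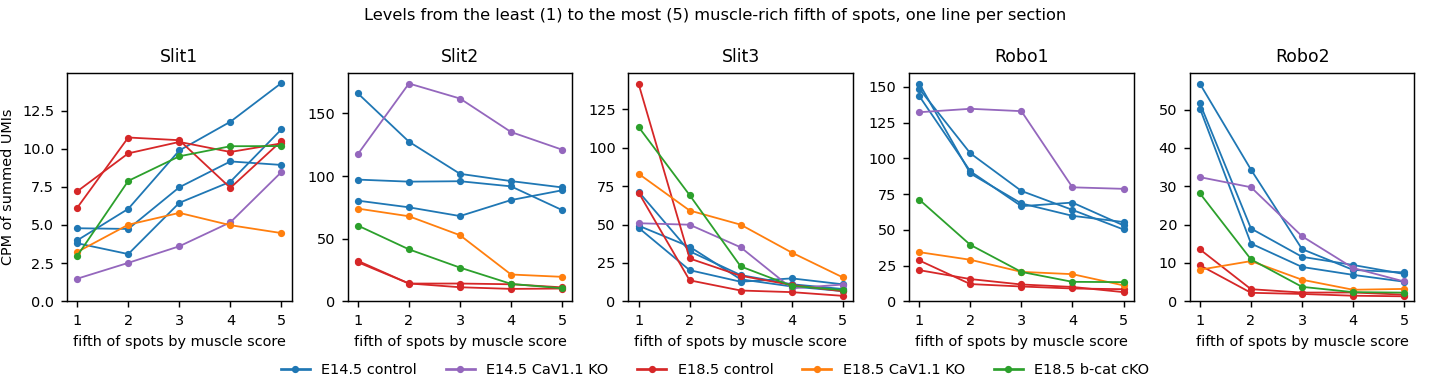
Levels (CPM of summed UMIs, linear axes from 0) in 5 equal classes of spots ordered from the least (1) to the most (5) muscle-rich, with 1 line per section coloured by group. Between the end classes Slit1 is higher in the most muscle-rich in all 8 sections, Slit3, Robo1 and Robo2 are lower in all 8, and Slit2 is lower in 6 of 8.

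The members also differed in how far their UMIs clustered in space. Moran's I, which is near 0 for a random scatter and approaches 1 where neighbouring spots are alike, ran from 0.189 to 0.538 over the 8 sections for Slit3. It ran from 0.0799 to 0.330 for Slit2, 0.0529 to 0.309 for Robo1, 0.0379 to 0.372 for Robo2 and -0.0234 to 0.0869 for Slit1. For comparison, the tendon gene Tnmd ran from 0.414 to 0.787. Low counts pull this measure toward 0, and only 7.74% to 24.8% of spots held a Slit1 UMI.

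Spots rich in markers of single tissues were compared next. The richest 10% of spots for each of 6 marker lists was set against the other spots of the same section, averaged over the 5 controls. In the controls 16.05% to 49.4% of tendon-rich, 28.6% to 61.8% of fibroblast-rich and 35.7% to 76.98% of mesothelium-rich spots were classed as muscle. The share was 81.7% to 94.1% for Schwann cell-rich spots and 48.8% to 100% for smooth muscle-rich spots. For all kept spots of the controls it was 67.5% to 89.4%. The lists thus also differ in muscle content, and its part in the differences below was not tested. Tendon-rich spots, chosen by Tnmd, Scx, Mkx, Fmod and Kera, had more Robo2, Slit3 and Robo1 and less Slit2 and Slit1. Robo2 stood at 39.9, 38.2 and 40.6 CPM in the tendon-rich spots of the E14.5 controls against 14.4, 16.8 and 12.0 CPM elsewhere. At E18.5 it stood at 11.4 and 18.4 CPM against 3.72 and 4.41 CPM, so that it was higher in tendon-rich spots in all 5 controls without overlap at either stage. The log2 difference for Robo2 was 1.58 (SE 0.11, adjusted p = 3.89e-09), for Slit3 0.95 (SE 0.08) and for Robo1 0.50 (SE 0.09), with 40.6% of all genes called. Slit2 was lower in tendon-rich spots in 4 of 5 controls (-0.54, SE 0.08, adjusted p = 3.23e-05), and Slit1 in 5 of 5 (-0.71, SE 0.19, adjusted p = 0.00618).

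Fibroblast-rich spots, chosen by Pdgfra, Clec3b, Sulf1, Dpt and Osr1, had the largest Slit3 difference of the 6 marker lists, smaller than that between outside tissue and muscle. Slit3 there stood at 35.2, 52.7 and 36.4 CPM at E14.5 against 18.9, 18.9 and 15.04 CPM elsewhere. At E18.5 it stood at 114 and 187 CPM against 18.6 and 37.8 CPM, and the classes did not overlap at either stage. The log2 difference was 1.72 for Slit3 (SE 0.09, adjusted p = 6.87e-07), 0.92 for Slit2 (SE 0.10), 0.77 for Robo2 (SE 0.12), 0.34 for Robo1 (SE 0.07) and -1.05 for Slit1 (SE 0.24), all past the threshold, as were 45.6% of all genes. Slit2 shared this place with Slit3, at 132, 206 and 87.5 CPM against 76.4, 90.4 and 70.4 CPM at E14.5 and at 47.3 and 40.9 CPM against 23.1 and 19.7 CPM at E18.5. It was higher in fibroblast-rich spots in all 5 controls, although at E14.5 the lowest rich value lay below the highest value elsewhere.

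Mesothelium-rich spots, chosen by markers such as Msln, Upk3b and Wt1 of the lining of the body cavity, also held more Slit3 (1.35, SE 0.24, adjusted p = 0.00223) and more Slit2 (0.68, SE 0.11, adjusted p = 0.00135), against 35.2% of genes called. Robo2 was higher (0.65, SE 0.20, adjusted p = 0.0298), and missed the threshold without the E14.5 control section 1 (0.40) or the E18.5 control section 1 (0.59). Slit1 was lower (-0.84, SE 0.21, adjusted p = 0.0118) and missed it without the E18.5 control section 1 (-0.80). Robo1 passed with 0.19 (SE 0.07, adjusted p = 0.0488) and missed it without any of the 3 E14.5 controls or the E18.5 control section 1, at 0.17 to 0.22.

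Smooth muscle-rich spots, where 7.11% of genes were called, had more Slit3 (0.78, SE 0.13, adjusted p = 0.0201) and Slit2 (0.34, SE 0.06, adjusted p = 0.0230) and less Slit1 (-0.69, SE 0.18, adjusted p = 0.0437). Slit3 missed the threshold without either E18.5 control (0.59 and 0.50). Its E18.5 values were 66.3 and 143 CPM against 24.2 and 39.3 CPM elsewhere, whereas the E14.5 values of 15.9, 32.5 and 18.8 CPM overlapped the 20.9, 20.7 and 16.2 CPM elsewhere. Slit2 and Slit1 missed it without several single controls, Slit2 at 0.26 to 0.35 without the E14.5 control section 1 or either E18.5 control, and Slit1 at -0.59 to -0.72 without the E14.5 control sections 1 or 2 or either E18.5 control. Schwann cell-rich spots, with 7.59% of genes called, had less Robo2 (-0.48, SE 0.13, lower in 4 of 5 controls), Slit3 (-0.38, SE 0.10, lower in only 3 of 5) and Robo1 (-0.25, SE 0.06, lower in 4 of 5). These 3 calls were lost when single controls were left out, Robo2 at -0.34 and -0.27 without the E14.5 control sections 1 and 2, Robo1 at -0.17 to -0.23 without the E14.5 control sections 1 or 2 or the E18.5 control section 2, and Slit3 at -0.16 to -0.27 without any E14.5 control, while without the E18.5 control section 2 Slit3 stood at -0.60. No member passed in endothelium-rich spots, where 3.3% of genes did and the endothelial receptor Robo4 was higher by 0.98 (SE 0.13, adjusted p = 0.0154).

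**Figure D3:**
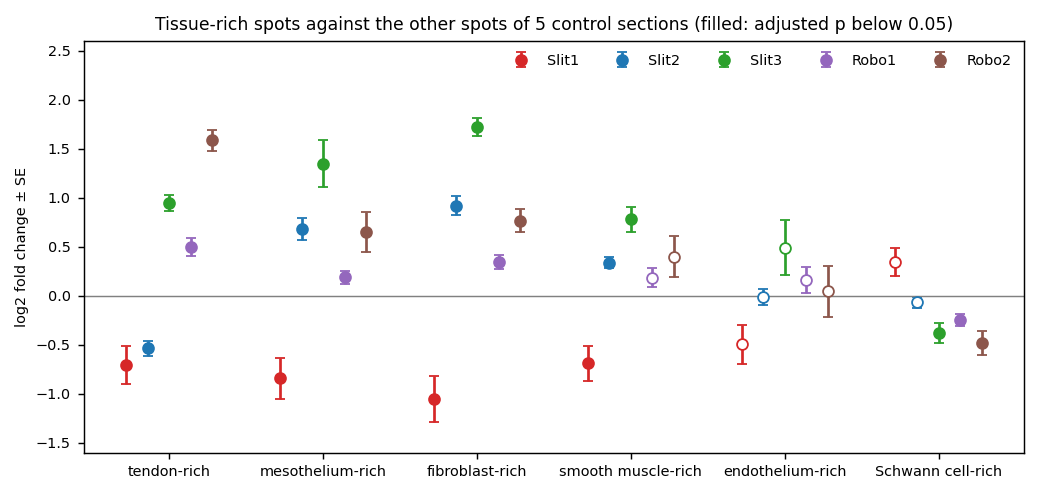
Log2 difference (± SE) between tissue-rich spots and the other spots of the 5 control sections for 6 marker lists. Filled points passed the threshold: Slit3 and Robo2 sit above 0 in tendon-, mesothelium- and fibroblast-rich spots, and Slit1 sits below 0 in those and in smooth muscle-rich spots.

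Within muscle, the spots were divided along the fibers. The center took the top 15% of muscle spots by a score of 8 neuromuscular endplate genes, the periphery the top 15% by a score of 4 genes of the myotendinous junction, and the intermediate region the rest. In the E14.5 controls the 8 endplate genes summed, without TMM, to 2015 to 2390 CPM in muscle spots and 954 to 1233 CPM outside. Their score can thus also rise with muscle content. Slit1 was also higher, and Slit3 lower, in the most than in the least muscle-rich class of spots. The part of muscle content in the center effects was not tested. Slit1 was higher in the center than in the intermediate region in all 8 sections. In the E14.5 controls it stood at 16.02, 11.2 and 8.52 CPM in the center, 9.52, 5.92 and 6.23 CPM in the intermediate region and 5.72, 5.18 and 4.61 CPM in the periphery. Each of these sections thus ran downward from center to periphery. The center effect at E14.5 was 0.77 (SE 0.14, adjusted p = 1.50e-04), among 14.4% of genes called.

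At E18.5 the Slit1 levels were 14.8 and 14.4 CPM in the center, 12.6 and 13.4 CPM in the intermediate region and 15.1 and 15.2 CPM in the periphery. The center effect was 0.17 (SE 0.11, adjusted p = 0.402), with 12% of genes called, and it was smaller than at E14.5 by a log2 difference of -0.60 (SE 0.17, adjusted p = 0.0187), where 12.8% of genes were called. This comparison was added after the values were seen, and the call was lost without the E14.5 control sections 1 or 2 or either E18.5 control, at -0.50 to -0.67, with DESeq2 (-0.60) and without the section block (-0.59). With regions set by distance from outside tissue, described with Slit3 next, the change was -0.0065. In the E18.5 CaV1.1 KO Slit1 stood at 8.89 CPM in the center and 4.11 CPM in the intermediate region, close to the split in the E14.5 CaV1.1 KO of 7.95 and 4.33 CPM. The E18.5 center effect of the KO exceeded that of the controls by 0.94 (SE 0.38, adjusted p = 0.214), which did not pass the test and turned to -1.68, also not past the threshold, with regions set by distance.

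Slit3 was sparse in the center of the E14.5 muscle when regions were set by the scores. Its levels there were 4.06, 5.40 and 4.06 CPM, against 9.58, 10.7 and 12.4 CPM in the intermediate region and 16.1, 15.3 and 18.01 CPM in the periphery. All 3 sections ran upward from center to periphery with no overlap between regions. The center effect was -1.19 (SE 0.17, adjusted p = 3.45e-06) and the periphery effect 0.59 (SE 0.13, adjusted p = 0.00229), the latter among 7.58% of genes called. Without the E14.5 control section 1 the periphery effect was 0.52 and missed the threshold.

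At E18.5 the Slit3 dip at the center was not seen, with 15.1 and 26.8 CPM in the center against 13.9 and 25.6 CPM in the intermediate region, while the periphery held 21.2 and 35.6 CPM. The center effect at E18.5 was 0.09 (SE 0.09, adjusted p = 0.653), and it exceeded the E14.5 center effect by 1.28 (SE 0.19, adjusted p = 1.84e-05) in regions set by the scores. The periphery effect at E18.5 was 0.53 (SE 0.09, adjusted p = 8.41e-06), with 30.8% of genes called. Across the 8 sections Slit3 was higher in the periphery than in the intermediate region in 7, the exception being the E14.5 CaV1.1 KO with 12.5 against 13.6 CPM. With regions set by distance instead, the center as the muscle spots farthest from outside tissue and the periphery as those within 150 µm of it, the E14.5 center effects of Slit1 and Slit3 were 0.08 and 0.05 and neither was past the threshold, while the Slit3 periphery effects were 1.1 and 1.32. Under these regions the E18.5 center effect of Slit3 was -0.58 and its change between the stages -0.63, neither past the threshold, so the sign of the stage change turned with the definition of the center. Of all genes, distance regions called 1 in the E14.5 center, 22 in the E18.5 center and 5 for the change, against 2036, 1693 and 1805 by the scores.

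Slit2 showed no center or periphery effect past the threshold by the scores. The E14.5 controls held 66.1, 76.0 and 66.1 CPM in the center and 76.1, 80.8 and 65.1 CPM in the intermediate region, and the E18.5 controls 18.49 and 18.8 CPM against 20.6 and 17.1 CPM. Center and intermediate values overlapped at both stages. The center effect was -0.11 (SE 0.07, adjusted p = 0.318) at E14.5 and -0.03 (SE 0.10, adjusted p = 0.930) at E18.5. The periphery held 81.1, 86.4 and 63.7 CPM at E14.5 and 19.3 and 13.2 CPM at E18.5, effects of 0.07 (SE 0.07, adjusted p = 0.646) and -0.20 (SE 0.10, adjusted p = 0.149). With regions set by distance the E18.5 center effect of Slit2 was 0.55 and its periphery effect 0.35, both past the threshold, so the directions at E18.5 depend on how the regions are defined. Muscle spots within 150 µm of outside tissue held 1.49 to 1.65 times the Slit2 CPM of those farther from it, without TMM, in the 4 E18.5 sections, and 1.054 to 1.20 times in the 4 at E14.5. The β-cat cKO held 27.2 CPM in the center and 22.9 CPM in the intermediate region, and its center effect differed from the controls by 0.28 (SE 0.17, adjusted p = 0.780), among 0.353% of genes called. In the E18.5 CaV1.1 KO the values were 21.4 and 34.3 CPM, a difference from the control center effect of -0.65 (SE 0.23, adjusted p = 0.142), among 3.21% called.

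The receptors showed no center or periphery effect past the threshold. Robo1 stood at 51.9, 47.2 and 45.0 CPM in the center of the E14.5 controls and 54.4, 58.6 and 58.2 CPM in the intermediate region, lower in the center in all 3 without overlap, with an effect of -0.23 (SE 0.08, adjusted p = 0.0516). Without the E14.5 control section 1 the Robo1 effect was -0.33 and passed, and without either E18.5 control it stayed at -0.23. Of 11 fits with other settings or a section left out, 6 kept its direction and side of the threshold. The values ran from -0.33 to 0.07, so its place beside the threshold depends on the fit. Robo2 effects were -0.25 (SE 0.20) in the center and 0.25 (SE 0.20) in the periphery at E14.5, and 0.06 (SE 0.26) and 0.47 (SE 0.24) at E18.5. With regions set by distance Robo2 was higher in the periphery at both stages, by 0.69 and 0.78, and Robo1 by 0.34 and 0.38, all past the threshold. Spots within 150 µm of outside tissue can hold some of it, and its part in these values was not tested.

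**Figure D4:**
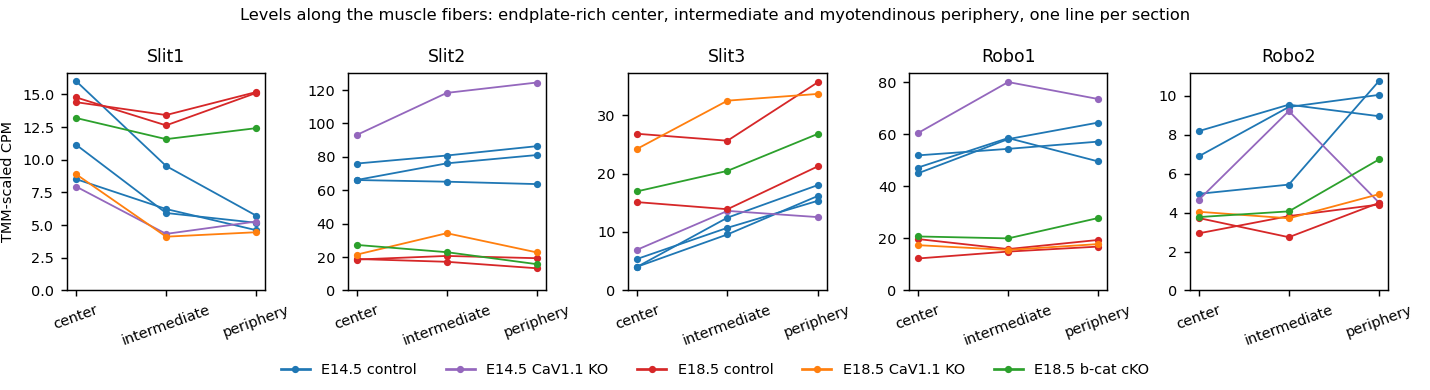
Levels (TMM-scaled CPM, linear axes from 0) in the endplate-rich center, the intermediate region and the myotendinous periphery of muscle, with 1 line per section. With these regions, and not with regions set by distance for the center, Slit1 runs down and Slit3 up from center to periphery in the E14.5 controls, while Slit2 differs little between center and intermediate region in the controls.

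From E14.5 to E18.5 the levels of Slit2 and Robo1 in control muscle fell more than 3-fold. With the muscle sums scaled together, Slit2 went from 73.0 ± 7.85 CPM (SD, n = 3) to 18.2 ± 2.32 CPM (SD, n = 2), and Robo1 from 55.1 ± 1.27 to 15.7 ± 1.66 CPM. The stages did not overlap for either gene. Slit2 fell by 2.0 on the log2 scale (SE 0.13, adjusted p = 8.37e-06), 4.01-fold, and Robo1 fell by 1.81 (SE 0.10, adjusted p = 3.88e-06), 3.50-fold. Robo2 stood at 6.0, 9.15 and 9.05 CPM at E14.5 and at 3.16 and 3.71 CPM at E18.5 and fell by 1.23 (SE 0.22, adjusted p = 0.00175), without overlap. The test called 65.6% of all genes between the stages, about as many higher as lower. Summed markers of other cells in the same muscle spots moved both ways. Lower at E18.5 was the Schwann cell list (6 of 6 genes with UMIs), at 59.9 to 65.1 CPM against 199 to 271 CPM. The myogenic progenitor list (3 of 3) was lower at 48.8 to 56.0 CPM against 135 to 151 CPM. The smooth muscle list (4 of 4) was lower at 308 to 312 CPM against 545 to 697 CPM. Higher at E18.5 was the fibroblast list (5 of 5), at 516 to 702 CPM against 350 to 450 CPM. The endothelium list (5 of 5) was higher at 459 to 514 CPM against 232 to 332 CPM, and neuron and cartilage lists were also higher. The tendon list (5 of 5) overlapped between the stages, at 208 to 306 CPM against 152 to 221 CPM. Their part in the lower Slit2, Robo1 and Robo2 levels was not tested.

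Slit1 and Slit3 went the other way under this scaling. Slit1, at 7.70 ± 2.19 CPM (SD, n = 3) and then 13.5 ± 0.293 CPM (SD, n = 2), was higher at E18.5 by 0.80 (SE 0.21, adjusted p = 0.0103). Slit3, at 10.5 ± 1.28 and then 21.1 ± 8.38 CPM, was higher by 1.01 (SE 0.23, adjusted p = 0.00562), and by 0.53 without the E18.5 control section 2, still past the threshold. For both genes the stages did not overlap. Scaled to library totals in place of TMM, Slit1 and Slit3 differed by 0.09 and 0.28 and neither passed the threshold, while the median of all genes moved to -0.73 and 20.01% of called genes were higher, compared with 50.7% under TMM. The 9 muscle genes summed to 21642 to 27362 CPM of the muscle sums at E14.5 and to 128417 to 131917 CPM at E18.5, and the part of this in the scaling was not tested. Slit2, Robo1 and Robo2 stayed past the threshold in the same direction under totals, Robo2 with -1.96. In the upper 50% of the muscle spots by muscle score, Slit3 differed by 0.31 and missed the threshold.

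Outside muscle, where 30.6% of genes were called, the receptors and Slit3 moved in the same directions. Robo1 stood at 125, 125 and 138 CPM at E14.5 and at 27.5 and 36.8 CPM at E18.5 and fell by 2.0 (SE 0.16, adjusted p = 0.00179). Robo2 stood at 37.3, 48.0 and 60.3 CPM and then at 15.03 and 18.9 CPM and fell by 1.49 (SE 0.25, adjusted p = 0.00834). Slit3 stood at 43.8, 56.6 and 52.1 CPM and then at 134 and 199 CPM and rose by 1.71 (SE 0.20, adjusted p = 0.00336), and none of these 3 genes overlapped between the stages. Slit2 fell by 1.17 (SE 0.33, adjusted p = 0.0404), and this call was lost without the E14.5 control section 2 (-0.82), the E18.5 control section 1 (-1.37) or the E18.5 control section 2 (-1.0). The Slit1 difference of 0.55 (SE 0.40, adjusted p = 0.333) did not pass. Tissue outside muscle differs in make-up between sections, with hepatocyte and cartilage genes present in some of them. The tendon list (5 of 5 genes) summed to 513 to 1053 CPM outside muscle at E14.5 and 2266 to 2651 CPM at E18.5, and the fibroblast list (5 of 5) to 681 to 898 CPM and then 1508 to 1653 CPM. These are lists in whose richest spots Slit3, and also Robo1 and Robo2, were higher, and their part in the stage differences was not tested.

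The CaV1.1 KO at E18.5 differed from its controls in 2 ligands under TMM scaling. Slit1 stood at 4.75 CPM in its muscle against 13.2 and 13.7 CPM in the controls, from 82 UMIs, and fell by 1.5 (SE 0.32, adjusted p = 0.0140), 2.83-fold. Slit2 stood at 30.4 CPM against 19.8 and 16.6 CPM and was higher by 0.74 (SE 0.16, adjusted p = 0.0165). In both cases the KO lay outside the range of the controls, and 25.7% of all genes were called. The single KO section was assumed to vary like the controls, which give the 3 residual degrees of freedom of this fit.

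The Slit2 difference in this mutant depended on which muscle spots were summed. In the upper 50% of the muscle spots by muscle score it was 0.24 and missed the threshold, whereas Slit1 kept its call. Muscle made up 61.1% of the kept spots of the E18.5 KO and 87.1% and 89.4% in the controls, and the 9 muscle genes summed to 71384 CPM of its muscle spots against 128417 and 131917 CPM. Of the other marker lists in these spots, mesothelium (6 of 6 genes with UMIs) summed to 233 CPM against 47.9 and 150 CPM, and macrophage (4 of 4) to 361 CPM against 101 and 134 CPM, while fibroblast (5 of 5) summed to 454 CPM against 516 and 702 CPM. The Schwann cell list (6 of 6) summed to 188 CPM against 59.9 and 65.1 CPM and the endplate list (8 of 8) to 2020.2 CPM against 1046 and 1057 CPM. Smooth muscle (4 of 4) summed to 189 CPM against 308 and 312 CPM, and hepatocyte (4 of 4) to 581 CPM against controls at 0.54 and 454 CPM. The myogenic progenitor list (3 of 3) summed to 76.2 CPM against 48.8 and 56.0 CPM, and endothelium (5 of 5) to 415 CPM against 459 and 514 CPM. The erythrocyte, cartilage and myotendinous lists were also below both controls. Their part in the Slit2 and Slit1 differences was not tested. Under library totals Slit1 was at -0.96, Slit2 at 1.28, Slit3 at 1.08 and Robo1 at 0.54, all 4 past the threshold, with a median over all genes of 0.54 and 90.6% of called genes higher, compared with 41.1% under TMM.

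Slit3 in the E18.5 KO stood at 30.8 CPM, above the 15.2 and 27.0 CPM of the controls, but the difference of 0.55 (SE 0.30, adjusted p = 0.220) did not pass the test. It passed, at 1.02, without the E18.5 control section 2, at 1.07 in the upper 50% of the muscle spots and at 1.08 under library totals. Robo1, at 15.8 CPM, lay between the controls of 16.9 and 14.6 CPM under TMM (0.00, SE 0.13, adjusted p = 0.996), whereas under library totals its difference of 0.54 passed, and Robo2, at 3.83 CPM, lay just above 3.16 and 3.71 CPM (0.16, SE 0.31, adjusted p = 0.743).

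At E14.5 no member passed the test in the CaV1.1 KO, where 2.08% of all genes did. Slit2 stood at 113 CPM against 74.5, 79.9 and 64.4 CPM in the controls, with a log2 difference of 0.63 (SE 0.14, adjusted p = 0.0822). It was above all 3 controls, and 8 of 10 fits with other settings or a section left out kept it short of the threshold. DESeq2 in place of edgeR, at 0.61, was among the settings where it passed. Robo1 stood at 74.3 CPM against 54.0, 54.8 and 56.5 CPM, a difference of 0.43 (SE 0.11, adjusted p = 0.113), and Slit1 at 5.18 CPM against 10.2, 6.59 and 6.28 CPM, a difference of -0.57 (SE 0.29, adjusted p = 0.383). Slit3 and Robo2, at 12.0 and 7.45 CPM, differed by 0.19 (SE 0.30) and -0.11 (SE 0.27). No member passed for the change of the KO effect between the stages, a comparison added after the values were seen in which 6.4% of all genes were called. The Slit1 change was -0.93 (SE 0.42, adjusted p = 0.208), and it passed, at -1.19, without the E14.5 control section 1.

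In the β-cat cKO no member passed the test in muscle under TMM scaling, where 8.8% of all genes did. Slit2 stood at 21.9 CPM against 19.8 and 16.6 CPM in the controls, a difference of 0.27 (SE 0.16, adjusted p = 0.350). In the upper 50% of the muscle spots by muscle score the Slit2 difference was -0.13, so that its sign was not stable. Robo1 stood at 21.0 CPM against 16.9 and 14.6 CPM (0.41, SE 0.12, adjusted p = 0.0818), and passed, at 0.53, without the E18.5 control section 1 and, at 0.63, under library totals. Slit1, at 11.7 CPM, lay below both controls with a difference of -0.20 (SE 0.28), Slit3, at 20.6 CPM, lay between them (-0.03, SE 0.30), and Robo2, at 4.38 CPM, lay above them (0.35, SE 0.29). Under library totals the Slit1 and Slit3 differences were 0.02 and 0.18, with a median over all genes of 0.21 and 79.9% of called genes higher, compared with 36.1% under TMM. The 9 muscle genes summed to 105199 CPM of the cKO muscle spots against 128417 and 131917 CPM. Macrophage summed to 222 CPM against 101 and 134 CPM, and smooth muscle to 568 CPM against 308 and 312 CPM. Schwann cell, endplate, myotendinous and fibroblast lists were also above both controls. Endothelium, erythrocyte, cartilage and neuron lists were below both. Their part in the differences was not tested.

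**Figure D5:**
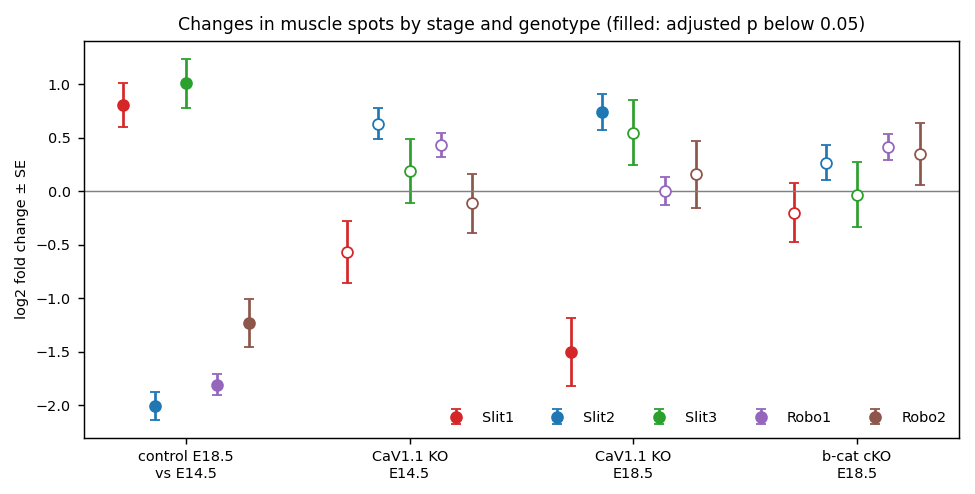
Log2 fold change (± SE) of the 5 genes in muscle spots for the stage comparison of the controls and for the 3 mutant sections against controls of the same stage, with TMM scaling. Filled points passed the threshold: all 5 genes between the stages (Slit1 and Slit3 not under library totals), Slit1 and Slit2 in the E18.5 CaV1.1 KO, and none in the E14.5 CaV1.1 KO or the β-cat cKO. Under library totals Slit3 and Robo1 in the E18.5 CaV1.1 KO and Robo1 in the β-cat cKO also passed.

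Outside muscle no member passed in any mutant. The E14.5 CaV1.1 KO had 0% of genes called there by edgeR (177 by DESeq2), the E18.5 CaV1.1 KO 0.108% and the β-cat cKO 1.22%. Slit3 in the E18.5 CaV1.1 KO stood at 70.1 CPM against 134 and 199 CPM, a difference of -1.25 (SE 0.29, adjusted p = 0.190), which passed with DESeq2. Robo1 in the β-cat cKO stood at 67.8 CPM against 27.5 and 36.8 CPM, a difference of 1.08 (SE 0.20, adjusted p = 0.0754), which also passed with DESeq2. Both mutants lay outside their controls here, but each is a single section of tissue of mixed make-up. The tendon and fibroblast lists summed to 663 and 917 CPM outside muscle in the E18.5 CaV1.1 KO. The lowest control sums were 2266 and 1508 CPM. Its mesothelium list was above the controls, at 820 CPM against 244 and 613 CPM. In the β-cat cKO the smooth muscle list summed to 2433 CPM against 456 and 825 CPM. The mesothelium and fibroblast lists of the cKO were also above both controls, at 968 and 1851 CPM. Its tendon list, at 961 CPM, was below both controls. The part of these lists in the differences was not tested.

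Over the 5 groups, each member had its own order of levels in muscle. Slit2 ran from the E18.5 controls through the β-cat cKO and the E18.5 CaV1.1 KO to the E14.5 controls and the E14.5 KO, and Robo1 followed the same order except that the E18.5 KO stood before the β-cat cKO. Of the neighbours that were tested, those that did not differ past the test were, for Slit2, the E18.5 controls and the β-cat cKO, and the E14.5 controls and the E14.5 KO. Robo2 ran from the E18.5 controls through the E18.5 KO and the β-cat cKO to the E14.5 KO and the E14.5 controls, and within each stage no mutant differed from its controls past the test. Slit1 ran from the E18.5 KO and the E14.5 KO through the E14.5 controls and the β-cat cKO to the E18.5 controls. Slit3 ran from the E14.5 controls and the E14.5 KO through the β-cat cKO and the E18.5 controls to the E18.5 KO, with an SD of 8.38 CPM in the E18.5 controls that spans the β-cat cKO and not the E18.5 KO. Neighbours where both are mutants, or of different stage where one is a mutant, were not tested.

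The other receptors and partners of the pathway were read as a list of 36 genes, of which 34 were tested in muscle. Robo3 had 0 to 6 UMIs in a muscle or outside sum and was not tested in these fits. Robo4 stood at 13.5, 23.0 and 16.6 CPM in E14.5 control muscle and at 50.9 and 55.2 CPM at E18.5, and was higher by 1.57 (SE 0.19, adjusted p = 2.10e-04), without overlap. It stood at 27.3 CPM in the E18.5 CaV1.1 KO, with a log2 difference of -0.96 (SE 0.27, adjusted p = 0.0388). Between the stages 8 of the 34 were higher and 19 lower, beside 33.2% of all genes higher and 32.3% lower, with a median log2 difference of -0.26 over the list and -0.01 over all genes tested. The largest differences were in Sdc4 (2.04), a heparan sulfate carrier, Robo4 and Pak1 (1.09), a kinase downstream of Rac, among the higher, and in Flrt3 (-2.08), a Robo1 co-receptor, Dcc (-1.92), the netrin receptor that Robo1 can silence, and Arhgap39 (-1.43), a GTPase-activating protein that binds Robo1, among the lower.

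In the E18.5 CaV1.1 KO 2 of the 34 were higher, Flrt3 (1.29) and Arhgap39 (0.60), and 8 lower, led by Pak1 (-1.47), Robo4 and Sos2 (-0.79), a share close to the 25.7% of all genes called. In the β-cat cKO 4 were higher, led by Arhgap39 (0.65) and the heparan sulfate carriers Sdc2 (0.48) and Sdc1 (0.41), and 2 were lower, the Slit-Robo GTPase-activating protein Srgap1 (-0.87) and the adaptor Nck2 (-0.56), beside 8.8% of all genes called. In the E14.5 KO none of the 34 passed. Along the fibers Nell2, a secreted ligand of Robo3, was lower in the center at E14.5 (-0.91), as Slit3 was, and higher there at E18.5 (0.65), and the change between the stages was 1.56 (SE 0.19, adjusted p = 4.37e-07). In the E18.5 periphery Nell2 was lower (-1.06), where Slit3 was higher. The center held more Pak1 at both stages (0.40 and 0.38), and at E14.5 more Dag1 (0.34), which binds Slit proteins, and Srgap1 (0.32). In all, 7 of the 34 were higher and 5 lower in the E14.5 center, 2 and 0 in the E18.5 center, 2 and 4 in the E14.5 periphery and 5 and 7 in the E18.5 periphery. Over all genes tested the calls in these regions made up 14.4%, 12%, 7.58% and 30.8%, and the center calls rest on regions set by the endplate score.

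The genes whose levels ran most like each member were sought over 32 sums, of 4 regions in each of the 8 sections, among 11210 genes with a mean of at least 5 CPM, by Pearson's r of log2(CPM + 1). Slit2 ran most like Dut (0.962), Marcksl1 (0.959) and Sgpl1 (0.959), and Robo1 like Dlg5 (0.969), Bcl11a (0.963) and Lrch2 (0.958). Slit3 ran most like Axl (0.940), Col5a2 (0.939), a fibrillar collagen gene, and Cald1 (0.938), Robo2 like Ptprs (0.926), Nfatc4 (0.912) and Tekt2 (0.902), and Slit1 like Lmcd1 (0.927), Map7d1 (0.919) and Eif4ebp1 (0.919). Between members, Slit2 and Robo1 had the highest r, 0.877, followed by Robo1 and Robo2 with 0.749, and Slit1 ran against Robo2 (-0.747), Slit2 (-0.608), Robo1 (-0.585) and Slit3 (-0.475). Regions of a section share its library and embryo, so these values are a description over 8 sections and carry no test.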

How the data were processed

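The data were 8 probe-based Visium sections of formaldehyde-fixed, paraffin-embedded mouse diaphragm, sequenced and deposited by the authors as raw UMI counts per probe-targeted gene and spot. Per the labels and methods Space Ranger made the counts against mm10 (GRCm38), and Seurat was used downstream; per the file headers the matrices came from Space Ranger 2.0.0 in 3 sections (E14.5 control sections 1 and 2 and the E14.5 CaV1.1 KO) and 2.0.1 in the other 5. All values used here were derived from these counts. The members and the gene lists were chosen with earlier results of these data known.

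Spots with at least 1000 UMIs were kept (12703). Counts per spot were scaled to 10000 and log-transformed only to score spots. Muscle spots lay above an Otsu threshold of the mean of 9 genes (Acta1, Myl1, Mylpf, Tnnt3, Neb, Ttn, Ryr1, Actn2 and Des). The center score used Ufsp1, Prkar1a, Etv5, Ache, Musk, Chrna1, Chrnd and Chrng, the periphery score Col22a1, Ankrd1, Rxrg and Uchl1 (top 15% each), and tissue-rich spots were the top 10% by mean z-score. UMI counts were summed per section and class and tested with edgeR 4.0.16 (R 4.3.3): TMM, filterByExpr, quasi-likelihood F test, adjustment over all genes by Benjamini-Hochberg and a threshold of 0.05. The stage and genotype fits held 8 sums in 5 groups (3 residual degrees of freedom), the position fit 24 sums with section as a block (6), and the muscle against outside and tissue-rich fits 16 sums with section as a block (3). The standard error is the log2 fold change divided by the square root of F. A spot holds several cells, no doublet caller was run, and the sections of a group are separate embryos.

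Named were the 5 members in every comparison, Robo3 and Robo4, up to 3 called genes per direction from the pathway list, the 3 genes most like each member, and the targeted genes. Alternatives were DESeq2 1.42.0, no count filter, library totals in place of TMM, other region and spot shares, regions set by distance, fits with or without a replicate or section block, and leaving out each control section. The scripts were tested on simulated counts. Sequences came from RefSeq tables (GRCm38.p6) and GRCm38 transcripts. The depth of 14179161 to 82859104 UMIs per section left Slit1 with 6 to 729 UMIs per muscle or outside sum.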

Additional observations from a re-analysis of the deposited data

Results flagged for a closer look

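4 results met the test of a difference between the stages within the controls. The difference between muscle and outside tissue changed from E14.5 to E18.5 by -0.81 on the log2 scale for Slit2 and by -0.65 for Slit3. Slit3 was below the outside level at both stages and further below it at E18.5. Slit2 did not differ past the test at E14.5 and was below the outside level at E18.5. The difference between the endplate-rich center and the intermediate region changed by 1.28 for Slit3, from a center effect of -1.19 to one of 0.09, and by -0.60 for Slit1, from 0.77 to 0.17. Each is the stage term of an edgeR quasi-likelihood fit over all genes, with adjusted p = 0.0399 for Slit2 and 0.0195 for Slit3 in the first comparison and 1.84e-05 for Slit3 and 0.0187 for Slit1 in the second, which was added after the values were seen. The second comparison holds for regions set by the endplate score: with regions set by distance from outside tissue the change was -0.63 for Slit3 and -0.0065 for Slit1, neither past the threshold, and 5 genes were called for it in place of 1805. No group held enough sections for a test of single outlying sections.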

How the results depend on the processing

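Over the members, 49 of 125 differences passed the threshold, and 27 of the 49 kept direction and call in every alternative run. Over the same comparisons 0% to 65.6% of all genes tested were called. Of 1231 alternative values for members, 1054 kept direction and side of the threshold. For the differences past the threshold these were 387 of 462. For the others they were 667 of 769, where keeping the side means staying short of the threshold. Printed here are the values that turned sign, and the counts of all called genes that moved by more than 1.5 times, each with the reported count after it. KO stands for CaV1.1 KO and cKO for β-cat cKO, and the cause of these shifts was not tested. Single mutant sections, 2 or 3 controls a stage, spots of several cells and the 6 to 47 Slit1 UMIs outside muscle in the E14.5 controls limit what can be read, and where 1 E18.5 control was left out the remaining one was assumed to vary like the other groups.

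With DESeq2 the number of called genes was 721 (E14.5 KO in muscle, against 308), 1576 (change of the KO effect, against 949), 177 (E14.5 KO outside muscle, against 0), 397 (E18.5 KO outside muscle, against 16), 576 (cKO outside muscle, against 181), 987 (E14.5 center, against 2036), 351 (E14.5 periphery, against 1073), 432 (E18.5 center, against 1693), 1880 (E18.5 periphery, against 4352), 198 (KO center effect, against 454), 9 (cKO center effect, against 50), 705 (stage change of the center effect, against 1805), 3107 (mesothelium-rich spots, against 5368), 310 (Schwann cell-rich spots, against 1125) and 261 (smooth muscle-rich spots, against 1072). The sign turned with DESeq2 for Robo1 -0.0060 (E18.5 KO in muscle), Robo1 -0.012 (E14.5 KO outside muscle), Robo1 0.016 (E14.5 periphery), Robo1 0.0046 (cKO center effect) and Slit2 0.032 (endothelium-rich spots). Without the count filter the number of called genes was 536 (E14.5 KO in muscle, against 308), 1 (E14.5 KO outside muscle, against 0), 35 (E18.5 KO outside muscle, against 16), 1750 (E14.5 periphery, against 1073), 135 (cKO center effect, against 50), 1333 (endothelium-rich spots, against 490), 2400 (Schwann cell-rich spots, against 1125) and 2240 (smooth muscle-rich spots, against 1072). The sign turned without the count filter for Robo1 -0.023 (E18.5 KO in muscle). With library totals the number of called genes was 7997 (E18.5 KO in muscle, against 3819), 2826 (cKO in muscle, against 1305) and 4655 (change of the KO effect, against 949). The sign turned with library totals for Slit1 0.017 (cKO in muscle), Slit3 0.18 (cKO in muscle), Robo1 0.10 (change of the KO effect), Robo1 -0.053 (E14.5 KO outside muscle) and Robo1 0.17 (E18.5 KO outside muscle). In the upper 50% of muscle spots the number of called genes was 463 (E14.5 KO in muscle, against 308). The sign turned in the upper 50% of muscle spots for Slit3 -0.0091 (E14.5 KO in muscle), Slit2 -0.13 (cKO in muscle), Slit3 0.12 (cKO in muscle) and Slit2 -0.27 (change of the KO effect). In the lower 50% of outside spots the number of called genes was 2204 (stage outside muscle, against 4522) and 3 (E18.5 KO outside muscle, against 16). The sign turned in the lower 50% of outside spots for Robo1 -0.16 (E14.5 KO outside muscle) and Robo1 0.10 (E18.5 KO outside muscle). With region shares of 10% the number of called genes was 153 (KO center effect, against 454). The sign turned with region shares of 10% for Slit2 0.060 (E18.5 center), Robo1 -0.053 (KO center effect), Robo2 -0.37 (KO center effect) and Slit2 -0.047 (cKO center effect). The sign turned with region shares of 25% for Robo1 0.0099 (E14.5 periphery), Robo1 -0.12 (KO center effect), Robo2 -0.52 (KO center effect) and Slit1 -0.089 (cKO center effect). With regions set by distance the number of called genes was 1 (E14.5 center, against 2036), 1859 (E14.5 periphery, against 1073), 22 (E18.5 center, against 1693), 0 (KO center effect, against 454), 0 (cKO center effect, against 50) and 5 (stage change of the center effect, against 1805). The sign turned with regions set by distance for Slit3 0.052 (E14.5 center), Robo1 0.072 (E14.5 center), Robo1 0.34 (E14.5 periphery), Slit2 0.55 (E18.5 center), Slit3 -0.58 (E18.5 center), Robo1 -0.12 (E18.5 center), Robo2 -0.22 (E18.5 center), Slit1 -0.18 (E18.5 periphery), Slit2 0.35 (E18.5 periphery), Slit1 -1.68 (KO center effect), Slit3 0.29 (KO center effect), Slit2 -0.47 (cKO center effect), Robo1 0.035 (cKO center effect), Robo2 0.59 (cKO center effect), Slit3 -0.63 (stage change of the center effect), Robo1 -0.19 (stage change of the center effect) and Robo2 -0.16 (stage change of the center effect). With the richest 5% of spots the number of called genes was 2387 (endothelium-rich spots, against 490) and 2247 (smooth muscle-rich spots, against 1072). The sign turned with the richest 5% of spots for Slit2 0.17 (endothelium-rich spots), Robo1 -0.065 (endothelium-rich spots), Slit2 0.049 (Schwann cell-rich spots) and Slit3 0.12 (Schwann cell-rich spots). The share of higher genes among the called with DESeq2 was 36% against 25% (E18.5 KO outside muscle), 62.7% against 90.1% (cKO outside muscle), 68% against 49.4% (E14.5 center), 60.8% against 41.9% (E14.5 periphery), 51.7% against 34.4% (E18.5 center), 86.8% against 75.3% (KO center effect), 26.9% against 41.3% (stage change of the center effect), 41.7% against 31.5% (mesothelium-rich spots) and 53.9% against 32.5% (Schwann cell-rich spots), and with library totals 94.7% against 34.7% (change of the KO effect) and 29.5% against 54.2% (stage outside muscle), beside those given with the stage and mutant comparisons.

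The controls of the 2 stages share the replicate numbers 1 and 2. Their deviations from the group means correlated at -0.18 for number 1 and -0.22 for number 2 over 11573 genes, so the numbers were not taken to pair the sections. With the replicate number as a block the number of called genes was 0 (E14.5 KO in muscle, against 308), 81 (cKO in muscle, against 1305), 0 (change of the KO effect, against 949), 2738 (stage outside muscle, against 4522), 0 (E18.5 KO outside muscle, against 16) and 0 (cKO outside muscle, against 181). With the replicate number as a block the sign turned for Robo2 0.21 (E14.5 KO in muscle), Robo1 -0.043 (E18.5 KO in muscle), Slit3 0.27 (cKO in muscle), Slit3 0.18 (E14.5 KO outside muscle) and Robo1 0.10 (E18.5 KO outside muscle). Under this block Slit2 in the stage comparison outside muscle, at -1.34, was the 1 call on a member that was lost.

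Without the section block the number of called genes was 159 (E14.5 center, against 2036), 44 (E14.5 periphery, against 1073), 132 (E18.5 center, against 1693), 985 (E18.5 periphery, against 4352), 0 (KO center effect, against 454), 1 (cKO center effect, against 50), 38 (stage change of the center effect, against 1805), 1566 (stage change of muscle against outside, against 2882), 184 (endothelium-rich spots, against 490), 98 (Schwann cell-rich spots, against 1125) and 7 (smooth muscle-rich spots, against 1072). Without the section block the sign turned for Slit2 0.0068 (endothelium-rich spots). All members' calls for center, periphery, their stage change, the stage change of muscle against outside and the Schwann cell- and smooth muscle-rich spots, and that for Robo1 in mesothelium-rich spots, missed the threshold without it.

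Leaving out 1 control section at a time, the number of called genes ran from 65 to 391 for E14.5 KO in muscle, from 0 to 11 for E14.5 KO outside muscle, from 0 to 58 for E18.5 KO outside muscle, from 0 to 1105 for change of the KO effect, from 610 to 1242 for Schwann cell-rich spots, from 576 to 1459 for cKO in muscle, from 62 to 307 for cKO outside muscle, from 790 to 2019 for E14.5 center, from 501 to 1767 for E18.5 center, from 918 to 1862 for stage change of the center effect, from 103 to 533 for KO center effect, from 32 to 63 for cKO center effect, from 2389 to 3487 for stage outside muscle, from 7 to 2923 for endothelium-rich spots, from 3429 to 5764 for mesothelium-rich spots, from 3110 to 6056 for muscle against outside at E14.5, from 1441 to 2782 for stage change of muscle against outside, from 335 to 1307 for E14.5 periphery, from 2381 to 4497 for E18.5 periphery and from 10 to 2195 for smooth muscle-rich spots. The sign of the difference turned in at least 1 of these fits for Robo1 in E18.5 KO in muscle (-0.10 to 0.12), Robo1 in E14.5 KO outside muscle (-0.023 to 0.049), Slit3 in E14.5 KO outside muscle (-0.19 to 0.016), Robo1 in E18.5 KO outside muscle (-0.20 to 0.22), Slit2 in change of the KO effect (-0.010 to 0.25), Slit2 in Schwann cell-rich spots (-0.11 to 0.033), Slit3 in cKO in muscle (-0.39 to 0.44), Robo1 in E18.5 center (-0.28 to 0.31), Robo2 in E18.5 center (-0.38 to 0.44), Slit2 in E18.5 center (-0.16 to 0.14), Robo1 in stage change of the center effect (-0.049 to 0.54), Robo2 in stage change of the center effect (-0.13 to 0.69), Slit2 in stage change of the center effect (-0.055 to 0.24), Robo1 in KO center effect (-0.15 to 0.44), Robo2 in KO center effect (-0.32 to 0.50), Robo1 in cKO center effect (-0.26 to 0.33), Robo2 in cKO center effect (-0.55 to 0.27), Slit1 in cKO center effect (-0.039 to 0.084), Robo2 in endothelium-rich spots (-0.20 to 0.35), Slit2 in endothelium-rich spots (-0.093 to 0.13), Slit2 in muscle against outside at E14.5 (-0.23 to 0.14), Robo1 in stage change of muscle against outside (-0.062 to 0.58), Slit1 in stage change of muscle against outside (-0.0035 to 0.53), Robo1 in E14.5 periphery (-0.11 to 0.11) and Robo2 in E14.5 periphery (-0.030 to 0.55).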
